A study of Mus musculus with 2 samples.

Results

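The T cell receptor alpha V segments, the Trav genes, were followed in CD8 T cells sorted from the mammary fat pad of virgin and parous mice. Members were all rows of both count matrices whose symbol starts with Trav, 128 of 32285 genes. The virgin library came from virgin C57BL/6 mice and the parous library from multiparous C57BL/6 mice. Each was 1 library of live CD45+ TCRB+ CD8a+ cells from the 4th fat pad, pooled from at least 5 untreated mice, and no age or interval since the last litter is labelled. With 1 library per group there was no replicate and no test. Every interval given here is an exact 95% Clopper-Pearson interval and covers counting error only. A difference between the libraries cannot be told apart from a difference between 2 pools of mice, or between 2 preparations. The libraries held 3019 parous and 2511 virgin cells after filtering, with median depths of 4108 and 7001 UMIs (unique molecular identifiers, counted molecules) per cell. Barcodes were shared between the libraries by 14 kept cells. The sort was checked on Cd8a, the CD8 alpha chain, which stood at 545 CPM (UMIs scaled to a common library total) in parous and 549.9 in virgin, and on Cd4, at 1.71 and 0.20 CPM.

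A T cell builds the variable part of its alpha chain by joining a Trav segment to a Traj segment next to the constant gene Trac. The rearranged chain pairs with a beta chain made from a Trbv segment. Beta rearrangement is largely shut off on the other allele once a chain is made, whereas alpha rearrangement runs on both alleles, so that a mature T cell can carry a second rearranged alpha chain. In the mouse strain sequenced as the reference, a block of Trav segments is duplicated, and the copies carry a D or N in their names. Segments with dv in the name can also join the delta chain locus. Some unconventional T cells use a fixed alpha segment, Trav1 in MAIT cells and Trav11 in invariant NKT cells.

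All 128 members lie on the plus strand of chromosome 14 between 52427928 and 53977678 on GRCm38, by GENCODE mouse release 21. The matrices held 20 annotated pseudogenes, 10 dv segments and 23 families, a family being all segments with the same number after Trav. The segments on which the results turn are shown as stretches of their spliced coding sequence, which is 343 bases long and comes from 2 exons. Trav3-3, the segment found in most cells, lies at chr14:53665929-53666506. It is shown with its copy Trav3d-3 from coding base 100 to 330, and capitals mark where the copies differ.

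Trav3-3: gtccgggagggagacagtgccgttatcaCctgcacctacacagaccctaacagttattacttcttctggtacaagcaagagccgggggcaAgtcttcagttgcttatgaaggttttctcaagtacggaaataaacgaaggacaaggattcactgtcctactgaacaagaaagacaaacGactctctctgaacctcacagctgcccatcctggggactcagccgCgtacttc
Trav3d-3: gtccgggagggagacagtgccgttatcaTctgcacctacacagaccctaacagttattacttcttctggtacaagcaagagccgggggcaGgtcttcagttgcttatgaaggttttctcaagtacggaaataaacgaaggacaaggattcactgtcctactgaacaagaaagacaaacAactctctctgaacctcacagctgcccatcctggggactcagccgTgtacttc

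These copies differed at 4 positions, and Trav3n-3 also differed from Trav3-3 at 4. Trav3-1, at chr14:52580665-52581213, belongs to the same family and differed from Trav3-3 at 29 positions, of which the same stretch holds 28, in capitals.

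Trav3-1: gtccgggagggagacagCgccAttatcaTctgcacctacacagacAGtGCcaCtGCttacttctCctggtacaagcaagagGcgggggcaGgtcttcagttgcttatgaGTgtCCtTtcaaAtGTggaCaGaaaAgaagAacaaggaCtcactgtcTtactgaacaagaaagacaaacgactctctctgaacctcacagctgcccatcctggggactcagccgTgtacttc

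Trav10d, at chr14:52810934-52811496, was found almost wholly in the virgin library and differed from Trav10 at 3 positions, shown in capitals from coding base 31 to 170.

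Trav10d: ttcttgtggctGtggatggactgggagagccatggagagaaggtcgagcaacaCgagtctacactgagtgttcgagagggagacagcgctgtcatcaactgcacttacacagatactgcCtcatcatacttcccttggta
Trav10: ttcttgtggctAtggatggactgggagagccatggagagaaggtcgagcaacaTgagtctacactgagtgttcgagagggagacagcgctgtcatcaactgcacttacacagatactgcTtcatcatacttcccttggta

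Near-identical copies bear on what a count can show, since a read that matches several genes is commonly left uncounted. Of the 128 genes, 39 had no 90-base window in their transcript that was absent from every other annotated transcript. Together these 39 held 29 of all Trav UMIs (0.187%), and 26 of them held none. The 67 genes with at least 50% unique windows held 13995 UMIs (90.5%). Of these 67, 11 held none, and 8 of the 11 are annotated pseudogenes. The other three, Trav16d-dv11, Trav13d-4 and Trav18, are not annotated as pseudogenes and had 58.0%, 70.7% and 100% unique windows. Trav3-3 had 87.6% unique windows and Trav3d-3 and Trav3n-3 had 0%, with 6 and 2 UMIs. Trav10d had 33.1% and Trav10 62.5%. Counts of copied segments are therefore uncertain, and segment use below is use among segments that the counting could resolve.

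**Figure D1:**
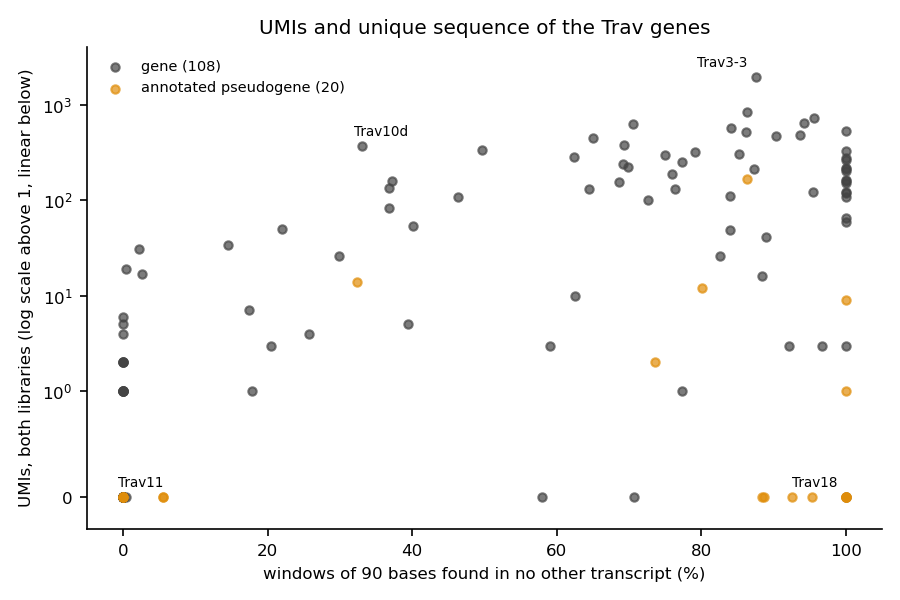
UMIs of each of the 128 Trav genes over both libraries (log scale above 1) against the share of its 90-base windows found in no other annotated transcript; each point is a gene, and annotated pseudogenes are orange. The 39 genes at 0% hold at most 6 UMIs each, while Trav3-3 (87.6% unique) holds 1937.

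Trav UMIs numbered 5562 in the parous library (413 CPM) and 9905 in the virgin library (491 CPM). Among parous cells 62.4% (60.6 to 64.1) had a Trav UMI, and among virgin cells 80.3% (78.7 to 81.8) had one. Assignment of a Trav gene required 2 or more of its UMIs in the cell and a share of 2/3 or more among all Trav UMIs there. This held for 1043 parous cells (34.5%, 32.9 to 36.3) and 1302 virgin cells (51.9%, 49.9 to 53.8). With 1 UMI sufficient, the shares were 54.6% and 65.4%. After each cell was thinned to 1400 UMIs, 12.2% (11.1 to 13.5) of the 2894 parous cells deep enough were assigned, against 14.7% (13.4 to 16.2) of 2497 in virgin. At equal depth the gap between the libraries was smaller, and under this rule the intervals overlapped. With 1 UMI sufficient they did not, at 35.7% (33.9 to 37.4) of thinned parous and 40.5% (38.6 to 42.4) of thinned virgin cells. Nor did they for any Trav UMI, found in 38.3% (36.5 to 40.1) and 44.9% (42.9 to 46.8) of thinned cells. Free RNA could not be measured in a clean non-T cell population. The 35 cells of the small cluster with epithelial and myeloid genes, found at a finer resolution, had a Trav UMI in 14 and an assigned gene in 5, but 23 of these cells also had a Cd3e UMI.

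Trav3-3 led both libraries and was used by a larger share of parous cells. It was assigned in 196 of 1043 parous cells (18.8%, 16.5 to 21.3) and in 86 of 1302 virgin cells (6.61%, 5.32 to 8.09), and the intervals do not overlap. With 1 UMI sufficient, its shares were 15.5% and 6.09%, and after thinning 22.0% and 9.78%. The 2/3 rule drops cells that express a second Trav gene, which weighs more on the virgin library. Among cells with at least 2 UMIs of any Trav gene, Trav3-3 reached 2 UMIs in 237 of 1155 parous cells (20.5%, 18.2 to 23.0) and 161 of 1575 virgin cells (10.2%, 8.77 to 11.8). Behind Trav3-3, parous cells used Trav12-2 (5.66%), Trav13-1 (4.31%), Trav7-5 and Trav5-4 (4.12% each). Virgin cells used Trav13-1 (5.30%), Trav8n-2 (4.76%), Trav12-2 (4.45%) and Trav16n (4.30%). The 2/3 rule shaped this order. Counted by cells with at least 2 UMIs of the gene, Trav3-1 came next to Trav3-3 in virgin, with 105 cells (6.67%), of which 48 were assigned to it. Virgin Trav10d had 86 such cells (5.46%), of which 31 were assigned. In parous Trav13-1 came next to Trav3-3, with 77 cells (6.67%), of which 45 were assigned. The 10 leading genes held 51.4% of assigned parous cells and 43.3% of assigned virgin cells, of 55 and 61 genes seen.

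The chance that 2 assigned cells of a library share their Trav gene was 5.44% in parous and 2.91% in virgin, as if 18.4 and 34.4 equally used genes were present. For Trbv the same measure was 6.73% and 6.20%, or 14.9 and 16.1 genes. Among assigned cells, alpha V use was thus more concentrated in the parous library, while beta V use differed less. Without cluster 2, described below, the Trav values were 3.65% and 2.86%.

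**Figure D2:**
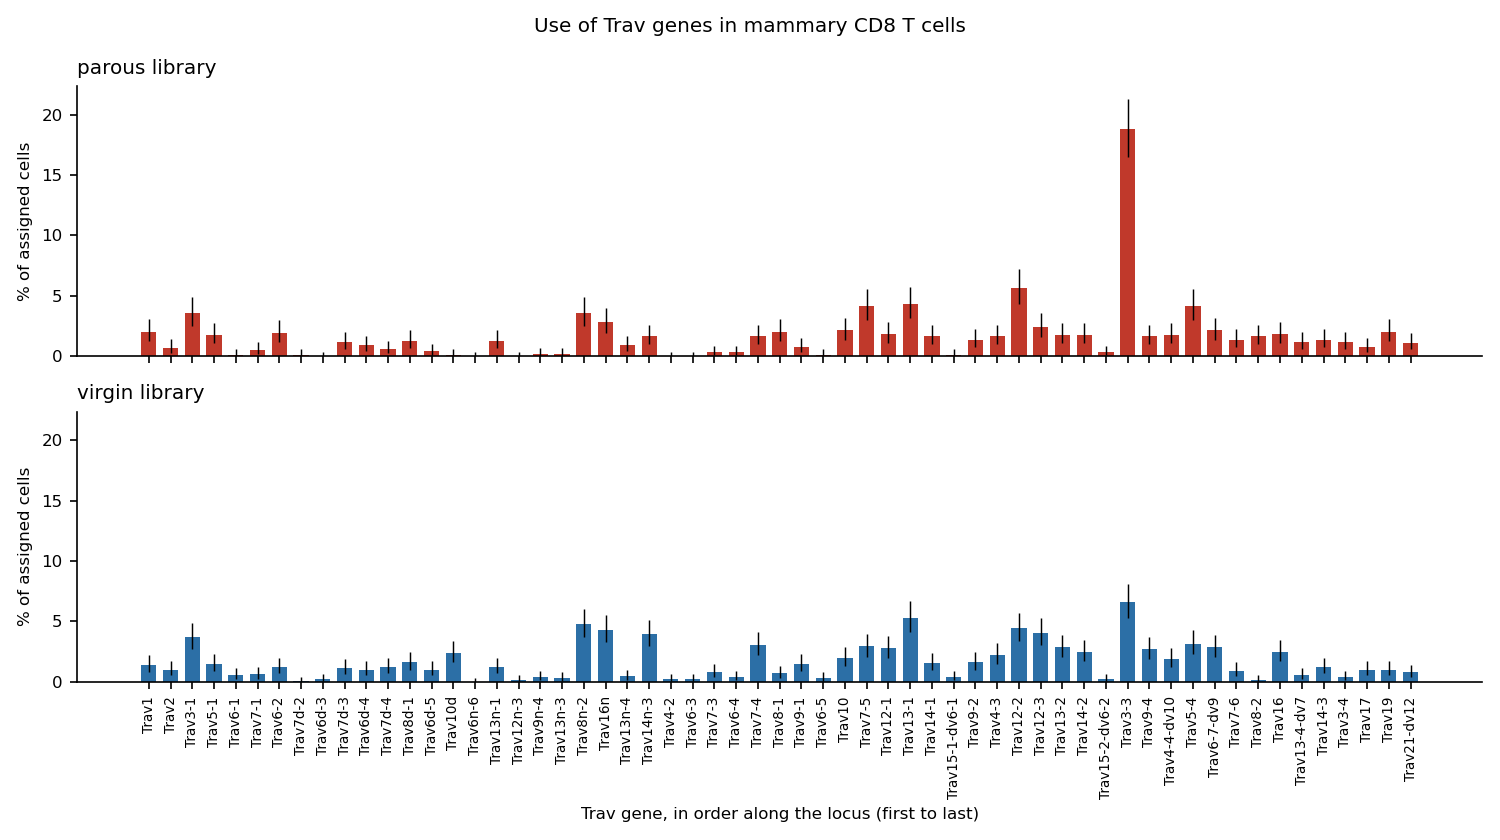
Share of assigned cells using each Trav gene with at least 10 UMIs in 1 library, in order along the locus, for 1043 parous and 1302 virgin cells; bars are shares and lines exact 95% intervals. Trav3-3 stands at 18.8% in parous and 6.61% in virgin, while no other gene passes 6% in either library.

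At least 10 assigned cells were reached by 36 Trav genes in parous and 40 in virgin. No like count for Trbv genes is given here. Trav8-2, Trav10d and Trav14n-3, like Trav3-3, had shares at least 1.5-fold apart without overlap of intervals, with at least 10 assigned cells in 1 library. Without a like count for other genes, they are given as a description and not as an excess. Of these, only Trav8-2, annotated as a pseudogene, was higher in parous. It was assigned in 17 parous cells (1.63%, 0.95 to 2.60) and 2 virgin cells (0.15%, 0.02 to 0.55), from 129 and 36 UMIs. Trav10d was assigned in 1 parous cell (0.10%, up to 0.53) and 31 virgin cells (2.38%, 1.62 to 3.36), from 10 and 355 UMIs. Trav14n-3 was assigned in 17 parous cells (1.63%, 0.95 to 2.60) and 51 virgin cells (3.92%, 2.93 to 5.12), from 123 and 508 UMIs. Segments with D in the name made up 4.41% of assigned parous cells and 8.76% of virgin cells, and N copies 10.5% and 15.6%. The dv segments stayed near each other, at 6.42% (5.01 to 8.09) and 6.76% (5.46 to 8.26). By family, Trav3 took 23.2% and 10.8%, Trav14 6.31% and 9.34%, and Trav10 2.17% and 4.44%.

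In summed CPM, 59 of the 128 members had at least 10 UMIs in 1 library, 29 had fewer and 40 had none. Of the 59, 6 were at least 1.5-fold higher in parous, where 7.23% of all 13591 genes passing the same minimum were. A further 22 were at least 1.5-fold lower in parous, where 17.4% of all genes were. The median log2 ratio of parous to virgin was -0.42 over the 59 and -0.15 over all genes. Trbv genes counted 1 higher and 6 lower of 24, with a median of -0.36. The 6 higher Trav genes were Trav8-2, Trav19, Trav3-3, Trav13-4-dv7, Trav8-1 and Trav7-6. Trav3-3 stood at 75.6 CPM in parous and 45.6 in virgin, and Trav10d at 0.74 and 17.6. Trac itself was at 221 and 177 CPM.

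Cell states came from clusters built with no T cell receptor gene, so Trav counts did not enter them. Cluster 2 held 663 parous cells (22.0% of the library) and 56 virgin cells (2.2%), was tissue-resident memory-like by Itgae, Itga1, Cxcr6, Rgs1, Cdh1 and Litaf, and was led by Adgrg1, Cdh1 and Car2. As it is mostly of 1 library, it may mark that library rather than a state. Cluster 0 was naive or central memory-like, cluster 1 virtual memory-like and cluster 3 Ly49 and Helios-like. Cluster 5 was a second tissue-resident memory-like cluster (Ccr8, P2rx7, Zfp683), cluster 6 circulating effector-like, cluster 8 cycling-like and cluster 9 interferon-responding-like. The name of cluster 1 rested on 3 of 7 virtual memory markers, Eomes, Ly6c2 and Cxcr3. At a finer resolution no cluster was named virtual memory-like. A finer cluster that shared the leading genes Rasgef1b, Ccr2, Eomes and Ier3 with cluster 1 was Gzmk or exhausted-like. Another, which shared Gzmm, Spry1 and Dipk2a with cluster 1, stayed unnamed. Cluster 4 stayed unnamed, as its 10 leading genes held no tissue-resident memory marker. Yet 9 of the 12 markers of that type were up in it, among them Itgae, Itga1, Cxcr6 and Cdh1, against 6 of 12 in cluster 2. It was led by Gzmc, Fcer1g and Tyrobp, and held 319 parous and 3 virgin cells. Of its cells 82.9% had a Cd8a UMI but 22.7% a Cd8b1 UMI, against 88.5% and 93.5% in cluster 2.

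Trav3-3 was most frequent in parous cluster 2, where 103 of 274 assigned cells used it (37.6%, 31.8 to 43.6). In parous cluster 1 it was 45 of 255 (17.6%, 13.2 to 22.9), against 35 of 379 (9.23%, 6.52 to 12.6) in virgin cluster 1. In the naive or central memory-like cluster the shares were 9 of 125 in parous (7.20%, 3.34 to 13.2) and 21 of 480 in virgin (4.38%), with overlapping intervals. The other cluster named tissue-resident memory-like, 5, had 1 of 46 parous and 2 of 87 virgin cells. The unnamed cluster 4, also high in tissue-resident memory markers, had 11 of 118 parous cells (9.32%, 4.75 to 16.1). That is a low reading for cluster 4, where 25 cells had 2 or more UMIs of both Trav13-1 and Trav3-3. Of all 28 such parous cells only 4 were assigned a gene, as the 2/3 rule drops the rest. Virgin cluster 2 held only 31 assigned cells, 5 of them Trav3-3 (16.1%, 5.45 to 33.7). Of all parous Trav3-3 cells, 52.6% (45.3 to 59.7) lay in cluster 2, against 20.2% (17.5 to 23.1) of parous cells with another Trav gene. Without cluster 2, Trav3-3 was at 12.1% of 769 parous cells and 6.37% of 1271 virgin cells. At the finer resolution of 1.2, parous cluster 2 fell mostly into 2 clusters. The one that took 329 of its 663 cells was Gzmk or exhausted-like by Pdcd1, Gzmk, Tigit, Lag3 and Tox, and held Trav3-3 in 74 of 150 assigned cells (49.3%, 41.1 to 57.6). The one that took 320 was tissue-resident memory-like, and held it in 37 of 146 (25.3%, 18.5 to 33.2).

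**Figure D3:**
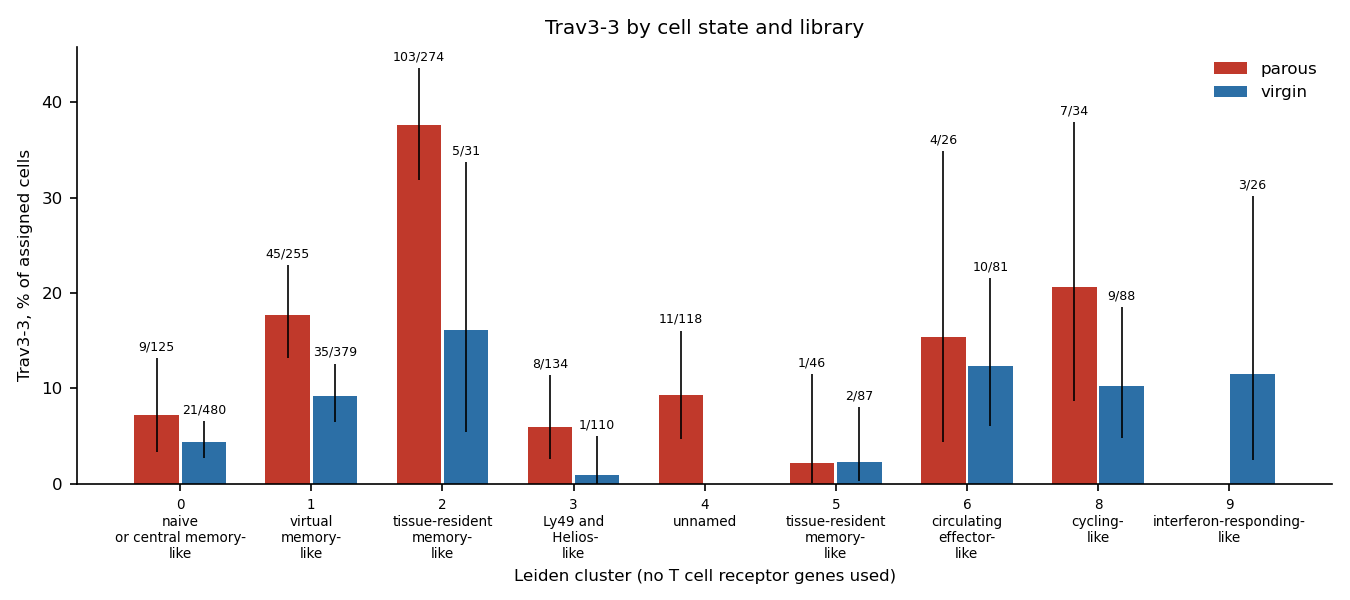
Share of assigned cells using Trav3-3 in each cluster with at least 20 assigned cells in a library, with exact 95% intervals and the counts above each bar; red is parous and blue virgin. Parous cluster 2 stands highest at 37.6%, and the naive or central memory-like cluster 0 is at 7.20% in parous and 4.38% in virgin.

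Inside parous cluster 2, the 103 Trav3-3 cells were set beside the 170 cells with other Trav genes that were deep enough, each thinned to 1400 UMIs, on genes picked with earlier results known. Gzmk, a granzyme, was seen in 56.3% (46.2 to 66.1) of Trav3-3 cells and 38.8% (31.5 to 46.6) of the others. Pdcd1, which encodes the inhibitory receptor PD-1, was seen in 38.8% (29.4 to 48.9) and 19.4% (13.8 to 26.2). Trac, the alpha constant gene, was seen in 44.7% (34.9 to 54.8) and 28.8% (22.1 to 36.3). The residency genes Itgae (21.4% and 18.2%) and Itga1 (14.6% and 15.3%) were close in both. The genes compared also included Cdh1, Car2, Cxcr6, Cd69, Tigit, Lag3, Cd8a, Cd8b1, Gzmb, Xcl1, Litaf and Rgs1. Of this whole list, only Pdcd1 had intervals that did not overlap, and no share over all genes stands beside it. Cells of 1 pooled library are not replicates, and many here share a pair. In cluster 2, Trav3-3 was with Trbv1, Trbv4 and Trbv3 in 26, 24 and 17 cells. Pdcd1 and Gzmk are also among the genes that named the finer cluster richest in Trav3-3, so the 2 comparisons are not independent. In parous cluster 1, the 45 Trav3-3 cells held no UMI of Itgae, Itga1, Cdh1 or Car2, and the 210 cells with other Trav genes held 2, 28, 11 and 15. After thinning, the intervals overlapped for all 4 genes, as for Itga1 at 0% (up to 7.87) and 3.85% (1.67 to 7.44). Cxcr6, a chemokine receptor of resident cells, was seen there in 18 of the 45 Trav3-3 cells (interval 25.7% to 55.7%) and in 31 of 208 others (14.9%, 10.4 to 20.5). It was the only gene of the same list whose intervals did not overlap there. In virgin cluster 1, Cxcr6 was seen in 15 of 35 Trav3-3 cells (42.9%, 26.3 to 60.6). The others had it in 82 of 344 (23.8%, 19.4 to 28.7), and these intervals overlapped.

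Other states had other leading segments. In the virgin library Trav12-3 led cluster 5 with 19 of 87 assigned cells (21.8%, 13.7 to 32.0), Trav10d led cluster 6 with 11 of 81 (13.6%, 6.98 to 23.0) and Trav3-1 led the cycling-like cluster 8 with 14 of 88 (15.9%, 8.98 to 25.2). Trav8n-2 led virgin cluster 9 with 7 of 26 (26.9%, 11.6 to 47.8). Trav12-2 led the Ly49 and Helios-like cluster 3 in both libraries, at 12 of 134 in parous (8.96%) and 10 of 110 in virgin (9.09%). Trav12-2 also led parous cluster 5, with 7 of 46 (15.2%), and shared the lead of virgin cluster 0 with Trav16n, 26 of 480 cells each (5.42%). In parous cluster 4 Trav13-1 led with 12 of 118 (10.2%, 5.37 to 17.1), and Trav3-3 followed with 11. Most cells with both of these genes, described below, were not assigned. At resolution 1.2 the parous cells of the cluster also led by Gzmc had Trav8-1 first, with 9 of 103. Trav3-3 led parous clusters 6 (4 of 26) and 8 (7 of 34). The chance that 2 cells share a Trav gene was 2.59% in cluster 0 of either library and 15.7% in parous cluster 2, with 4.01% in parous cluster 4 and 7.30% in virgin cluster 5.

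Both an assigned Trav and an assigned Trbv gene were found in 825 parous and 1159 virgin cells. A V gene pair is wider than a clone, since the joining sequence was not analysed here. The chance that 2 cells share a pair was 0.879% in parous and 0.402% in virgin, 2.25 and 2.29 times the product of the separate chances. Pairs seen in at least 8 cells numbered 13 in parous and 17 in virgin, holding 26.5% and 20.6% of the cells. In the naive or central memory-like cluster the pair value was 0.17% in parous and 0.15% in virgin, and in cluster 3 it was 0.19% and 0.16%. It was 4.03% in parous cluster 2, 3.80% in virgin cluster 5, 3.85% in virgin cluster 6 and 5.68% in virgin cluster 8.

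Parous Trav3-3 cells were found with 16 Trbv genes, of which Trbv1, Trbv3 and Trbv4 were the most frequent. Trav3-3 with Trbv1 was found in 42 cells, 26 of them in cluster 2, where the product of the shares gives 14.3 cells, and in 2 virgin cells. Trav3-3 with Trbv3 was found in 36 cells (product 21.5), 17 in cluster 2 and 13 in cluster 1. These pairs fell short of 3 times the product and are named for their size. Trav3-3 with Trbv4 was found in 28 cells (product 8.37), 24 of them in cluster 2, and took 63.6% of the Trbv4 cells. In virgin it was found in 8 cells, 7 of them in cluster 1. In parous cluster 1, Trav5-4 with Trbv31 was found in 14 of its 19 cells (product 1.88). Trav3-1 with Trbv13-3 had 16 cells (product 2.53), 11 in cluster 2. All 8 cells of Trav8-1 with Trbv15 (product 0.56) lay in cluster 4, with none in virgin.

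In the virgin library the largest pairs lay outside cluster 2. Trav3-1 with Trbv31 was found in 28 cells (product 3.26), 14 in cluster 8 and 7 each in clusters 5 and 6. Trav10d with Trbv31 was found in 21 cells (product 2.20), 10 in cluster 6, 7 in cluster 8 and 4 in cluster 5. Neither pair was seen in parous. Trav14n-3 with Trbv26 had 18 cells (product 1.62), 16 in cluster 1, and Trav13-2 with Trbv17 had 17 cells (product 1.18), 15 in cluster 1, again with none in parous. Trav12-3 with Trbv29 had 17 cells (product 4.00), 12 in cluster 5. Trav8n-2 with Trbv3 had 25 cells (product 5.21) over clusters 1, 9 and 5, and Trav12-1 with Trbv12-1 had 12 cells (product 2.17), 9 in cluster 8.

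**Figure D4:**
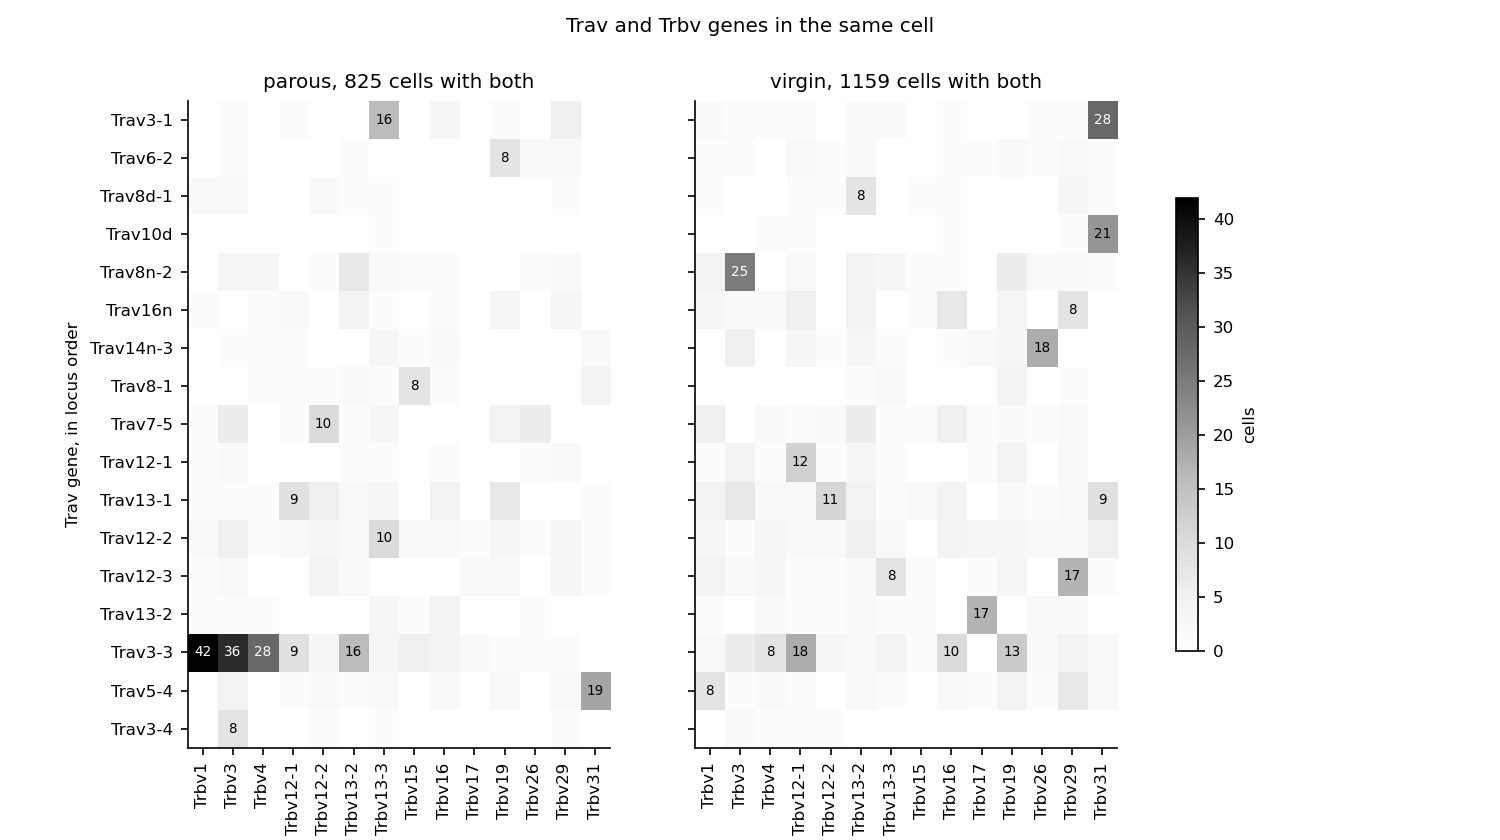
Cells with each combination of an assigned Trav gene (rows, in locus order) and an assigned Trbv gene (columns) in the parous library (825 cells) and the virgin library (1159 cells); shading is the cell count, printed where it is at least 8. Trav3-3 with Trbv1, Trbv3 and Trbv4 gives 42, 36 and 28 parous cells, and Trav3-1 and Trav10d with Trbv31 give 28 and 21 virgin cells.

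The 2 virgin segments that share Trbv31 were also found together in single cells. At least 2 Trav genes with 2 or more UMIs each were seen in 135 of 1155 parous cells (11.7%, 9.89 to 13.7) and 406 of 1575 virgin cells (25.8%, 23.6 to 28.0). At least 2 Trbv genes were seen in 13.4% and 23.6%, so the libraries differed for beta as well, in the order of their depth. After thinning to 1400 UMIs, the shares with 2 Trav genes fell to 2.20% in parous (of 364) and 3.42% in virgin (of 380). Doublets and free RNA give the same reading and were not separated, and the doublet caller marked too few cells to be used. The combinations were counted after the pairs had been seen.

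Trav3-1 and Trav10d occurred together, at 2 or more UMIs each, in 52 virgin cells, where the product of their shares gives 5.73, and in 0 parous cells. Trbv31 was the assigned beta segment in 35 of the 44 that had one. The cycling-like cluster 8 held 38 of the 52 cells, 25.2% (18.5 to 32.9) of that cluster's 151 virgin cells, and cluster 6 held 10 of 167. In cluster 8, 64 of 151 cells had a UMI of either segment, and 61 of these 64 also had a Trbv31 UMI. In the naive or central memory-like cluster 26 of 976 cells had a UMI of either segment, and 3 of them a Trbv31 UMI. The 52 cells were deep, with a median of 19584 UMIs, and cluster 8 had a median of 17910. Leaving out cells above the 95th percentile of depth left 18 of the 52, and thinning to 1400 UMIs left 0.

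In parous, the leading combination was Trav13-1 with Trav3-3, in 28 cells (product 15.8) and in 2 virgin cells. Cluster 4 held 25 of the 28, 7.8% (5.1 to 11.4) of its 319 cells, and Trbv12-1 was assigned in 16 of the 18 that had a beta segment. These cells had a median of 3434 UMIs, and leaving out the deepest cells left 26. Virgin Trav14-2 with Trav3-3 was found in 18 cells (product 6.03), 15 of them with Trbv16, and Trav13n-4 with Trav14n-3 in 13 cells (product 0.86), 10 of them with Trbv26. In cluster 4 as a whole, 45 of 152 parous cells with a Trav gene of 2 UMIs had a second (29.6%, 22.5 to 37.5), against 5 of 130 (3.8%, 1.3 to 8.7) in parous cluster 0. The shares with 2 Trbv genes were 12.1% and 12.2%. In virgin cluster 8 the Trav share was 54.3% (45.7 to 62.8) and the Trbv share 30.4% (23.1 to 38.5).

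**Figure D5:**
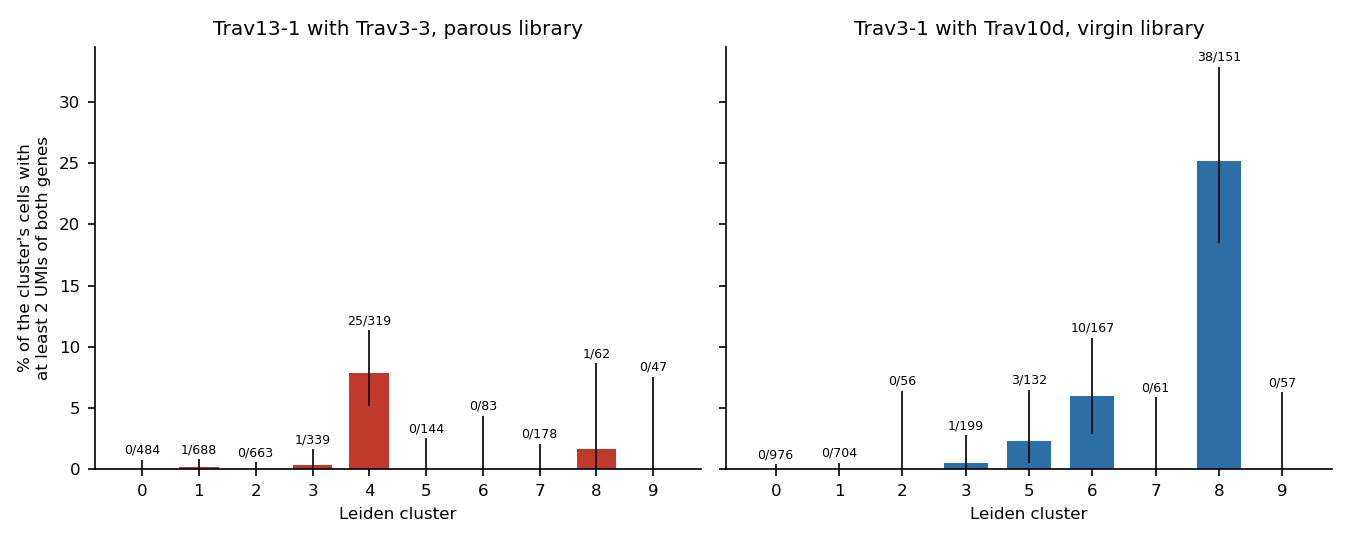
Share of each cluster's cells with at least 2 UMIs of both Trav13-1 and Trav3-3 in the parous library (left) and of both Trav3-1 and Trav10d in the virgin library (right), with exact 95% intervals and counts; clusters with at least 20 cells are shown. The first combination is at 25 of 319 cells in cluster 4, the second at 38 of 151 cells in cluster 8.

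Segments of unconventional T cells were few or could not be read. Trav1 was assigned in 21 parous and 18 virgin cells. Of those with a Trbv gene, 3 of 14 and 5 of 16 had Trbv19 or a Trbv13 gene, the beta segments known from MAIT cells. These segments were also common among all cells with an assigned Trbv gene. Trbv19, Trbv13-1, Trbv13-2 and Trbv13-3 were assigned in 140, 113, 204 and 192 of 2249 parous cells. In virgin they were assigned in 141, 140, 162 and 107 of 2152 cells. Zbtb16, a transcription factor of innate-like T cells, had a UMI in 0 of the parous and 1 of the virgin Trav1 cells. Trav11 and Trav11d had 0 UMIs in both libraries. Trav11d had no unique 90-base window and Trav11 0.4%, so this count sets no limit on invariant NKT cells. Cells with a dv segment had a Trdc UMI in 0 of 67 cases in parous and 2 of 88 in virgin. For other Trav genes the counts were 8 of 976 and 7 of 1214.

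Other receptor genes are given by list. Of the 7 CD3 and coreceptor genes, only Cd4 was at least 1.5-fold higher in parous, on 23 and 4 UMIs, and none was lower. Cd3e was at 1067 and 998.7 CPM and Cd8b1, the CD8 beta chain, at 868 and 1153. None of the 7 proximal signalling genes, among them Lck and Zap70, was 1.5-fold apart. Of 4 constant genes, Trdc, the delta constant gene, was higher in parous, on 39 and 26 UMIs. Traj genes gave 0 higher and 6 lower of 12 (median log2 ratio -0.59), and Trbj genes 0 higher and 10 lower of 14 (median -0.76). Of 5 invariant T cell genes measured, Zbtb16 (34 and 6 UMIs) and Klrb1c (405 and 167) were higher in parous and none was lower. Rag1 and Rag2, the recombinase genes, had 0 UMIs in both, and Dntt, which adds bases at the joint, had 4 and 29.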

How the data were processed

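The deposited values were UMI counts per gene and barcode, made by the authors. The file headers give Cell Ranger 7.0.0, and the submitters' processing notes give mm10 and list R 4.4.2 and Seurat with no role stated. The gene annotation used for counting was not given in the sources used here, and the T cell receptor library was not analysed here. Cells were kept with at least 500 genes, 1000 UMIs and under 10% mitochondrial UMIs, which left out 1908 of 4927 parous and 15 of 2526 virgin barcodes. Scrublet in scanpy 1.11.5 marked 2 and 12 cells, too few to have worked, and no cell was removed. For clustering (Leiden 0.8, leidenalg 0.10.2), virgin UMIs were thinned to 58.7%, and 777 genes (T cell receptor, antibody, ribosomal protein and mitochondrial) did not enter. A cluster was named from at least 3 markers at least 2-fold up and seen in 10% of its cells, with a marker of its type and no more of another among its 10 leading genes. CPM ratios had 0.5 added to each count and used genes with at least 10 UMIs in 1 library. Assignment and ratios were tested on simulated data, in which each cell had a single true Trav gene. How assignment treats cells with 2 Trav genes was therefore not tested.

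Named genes were the 10 leading in each library, those with at least 10 assigned cells in 1 library and shares 1.5-fold apart without overlap, the leader of each cluster with at least 20 assigned cells, and pairs with at least 8 cells and 3 times the product of shares. Members and lists were chosen with earlier results of these data known. Sequences and positions came from GENCODE mouse release 21 (GRCm38), matched by Ensembl ID for all 128 members. Windows were searched in its transcripts, not in the chromosome as the design had it, because no genome sequence was used here.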

Additional observations from a re-analysis of the deposited data

Results flagged for a closer look

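Trav UMIs were also present in the barcodes that the cell filters left out. In the parous library 467 of 1908 left-out barcodes (24.5%, 22.6 to 26.5) had a Trav UMI, and in the virgin library 4 of 15 (26.7%, 7.79 to 55.1). These barcodes entered no comparison. Their median depth was 600 UMIs in parous and 782 in virgin, and they were not set beside kept cells of like depth. The source of these Trav UMIs was not tested.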

How the results depend on the processing

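Shares of cells are limited by depth. The assigned share in parous and virgin was 54.6% and 65.4% with 1 UMI, 21.5% and 37.2% with 3 UMIs and 12.2% and 14.7% after thinning to 1400 UMIs. In parous it was 37.0% under the stricter cell filter and 36.3% without cluster 7, the low-UMI cluster. The parous Trav3-3 share was 15.5% with 1 UMI, 21.7% with 3 UMIs, 22.0% after thinning and 12.1% without cluster 2, an alternative chosen after seeing the data. In virgin it was 9.78% after thinning and, when every cell with 2 UMIs of it was counted, also chosen after seeing the data, 10.2%. As families, Trav3 stood at 23.2% and 10.8%, the chance of a shared Trav was 10.6% and 8.18%, and the virgin pair ratio was 1.37. At resolution 1.2 parous cluster 2 split, and its larger piece, Gzmk or exhausted-like, had Trav3-3 at 49.3%, the tissue-resident memory-like piece at 25.3%. Cells with 2 Trav genes were 25.6% and 43.9% with 1 UMI each and 2.20% and 3.42% after thinning. In virgin they were 23.3% with 1 Trbv gene only and 23.0% without cluster 8. With a minimum of 1 UMI, 11 of 88 Trav genes were 1.5-fold higher in parous and 38 lower, where 13.9% and 25.9% of all 20011 genes were. As families, 1 of 18 was higher and 5 lower. Median-of-ratios scaling shifted log2 ratios by 0.13 towards parous. Trav3-3 was higher in parous under each alternative run, and 42 of 48 alternatives kept the leading gene of the cluster. The causes were not tested. No paired analysis was possible because each group has 1 library.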

Other observations

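Some beta segments came with few readable alpha segments. Of parous cells with an assigned Trbv gene, 63.5% (61.5 to 65.5) had a Trav UMI, but of the 99 with Trbv17 only 41.4% (31.6 to 51.8) had. In parous cluster 2 a Trav UMI was found in 12 of 43 Trbv17 cells (27.9%, 15.3 to 43.7) and 6 of 23 Trbv31 cells (26.1%, 10.2 to 48.4), and in parous cluster 1 in 22 of 64 Trbv13-3 cells (34.4%, 22.9 to 47.3). Median UMIs of these groups were 3245, 3272 and 3815, against 4298 in all parous Trbv-assigned cells. They were picked as the lowest of the Trbv genes compared by cluster. Trbv4 cells of parous cluster 2 had a Trav UMI in 44 of 50 (88.0%), at a median of 3227 UMIs. In virgin, 63 of 71 Trbv17 cells (88.7%), 166 of 179 Trbv31 cells (92.7%) and 84 of 107 Trbv13-3 cells (78.5%) had a Trav UMI. Among all Trbv-assigned virgin cells 81.0% had one. Virgin Trbv31 cells were assigned a Trav gene in 49.2% (41.6 to 56.7) and all Trbv-assigned virgin cells in 53.9% (51.7 to 56.0), with overlapping intervals. Whether the alpha segments of the first groups are copies without unique windows was not tested.

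Traj UMIs were too few to read the joining segment. They numbered 146 in parous and 377 in virgin, and were present in 5.75% and 13.0% of cells with an assigned Trav gene.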
